A study of Mus musculus with 7 samples.

Results

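Sarcomere, fusion and myofibre genes were followed in bulk RNA-seq of muscle stem cells (MuSCs) sorted with or without the Gli1 lineage label. The set was a list of 40 gene symbols, matched by name to the rows of the count table, and 33 of the 40 had a row among the 13280 rows of the table. Of the 33 genes, 30 had at least 1 read in some library and 3 (Tnnt2, Pgam2 and Neb) had none. The 7 symbols with no row were Myh3, Myh7, Tnni1, Tnnc1, Myl4, Csrp3 and Mymx, and they were not analysed here. The list was divided by stage. Embryonic and fusion genes were 7 (4 with a row), adult fibre genes were 21 (18 with a row), and genes used at both stages were 12 (11 with a row).

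The libraries were 4 of Gli1+ MuSCs (tdT+) and 3 of Gli1- MuSCs (tdT-). Both populations came from adult mice with 1 copy of Gli1-CreERT2 and the R26-tdT reporter, given tamoxifen (TAM) and taken 3 days later, with C57BL/6 as the labelled background, where the methods give a mix of C57BL6 and 129. CreERT2 is read from the Gli1 locus and disrupts the copy that carries it, so the control cells share that allele, the reporter and the drug, and tdT marks cells that used the Gli1 locus when TAM was given rather than at the time of the sort. MuSCs were gated from uninjured hindlimb muscle by surface proteins (VCAM1 present; CD45, CD31 and Sca1 absent), and each library was made from 1 ng of total RNA. The study describes its replicates as biological and independent, and the number of mice behind a library is not stated.

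Adult muscle fibres contract through sarcomeres, in which myosin thick filaments pull on actin thin filaments under the control of troponin and calcium. Quiescent MuSCs lie beside the fibre and, as precursors, are not known for making the contractile apparatus. When MuSCs are activated they become myoblasts, fuse through the membrane proteins myomaker (Mymk) and myomixer (Mymx), and first build sarcomeres with embryonic and neonatal myosin, cardiac actin (Actc1) and cardiac troponin T (Tnnt2) before adult fast or slow isoforms replace them. Some genes of the set, such as the intermediate filament gene Des and the acetylcholine receptor subunit gene Chrna1, are active in precursors and fibres alike.

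The fast myosin heavy chains of adult fibres are an example of how alike the sequences behind separate rows can be. Myh1 (type IIx), Myh2 (type IIa) and Myh4 (type IIb) lie side by side on chromosome 11, and the coding sequence of Myh1 was 90.2% identical, and that of Myh2 88.2% identical, to that of Myh4 (GENCODE transcripts, GRCm38). The longest stretch found without a difference in all 3 coding sequences was 140 bases, at positions 1549 to 1688 of the Myh4 coding sequence, and is shown because a read within it cannot be given to 1 gene.
Myh1, Myh2 and Myh4: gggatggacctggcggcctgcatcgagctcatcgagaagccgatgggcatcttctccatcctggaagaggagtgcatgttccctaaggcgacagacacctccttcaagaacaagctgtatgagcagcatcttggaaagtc

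The most divergent window of 75 bases is shown beside it because reads there can be told apart. Capitals mark the 31 positions at which the 3 genes were not all the same.
Myh4: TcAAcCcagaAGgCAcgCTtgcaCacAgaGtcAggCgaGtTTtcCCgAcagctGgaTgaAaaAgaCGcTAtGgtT
Myh1: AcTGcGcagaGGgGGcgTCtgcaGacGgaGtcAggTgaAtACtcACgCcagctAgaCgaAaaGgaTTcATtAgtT
Myh2: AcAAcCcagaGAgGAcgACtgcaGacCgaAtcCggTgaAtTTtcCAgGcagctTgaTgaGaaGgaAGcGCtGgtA

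Of all stretches of 31 bases in the transcripts of Myh1, 42.9% also occurred in another gene. The share was 34.5% for Myh2, 30.4% for Myh4 and 18.6% for the neonatal myosin gene Myh8, so the values of these 4 genes are uncertain as to which myosin was read. For Tnnc2 it was 59%, all with Ube2c on the opposite strand, and for Atp2a1 20.3%, nearly all with Rabep2 on the opposite strand. Mb (27.7%), Ckm (13.6%) and Myl1 (14.5%) also shared sequence with an antisense gene or a pseudogene. No source used here says whether the counting was stranded, so reads within these shared stretches may belong to either gene. For Des, Chrna1, Acta1, Actn3 and Csrp2 the share was between 0% and 5.28%.

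The first result is how few of these genes were read at all. Over the 33 genes and 7 libraries there were 231 values, of which 142 (61.47%) were 0, against 34.26% of values over all genes of the table. Of the other values 87 were of 15 reads or more and only 2 were lower (1 read of Myh2 in Gli1- replicate 1 and 2 reads of Ttn in Gli1+ replicate 2). Values of the set were thus mostly either 0 or well above it. The share of such low counts over all genes was not computed. Among all genes with reads, the median per library was between 298 and 722 reads. A count of 0 allows up to 3 reads, or 0.162 to 0.302 CPM (counts scaled to a common library total) depending on the library, which covers counting error only.

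Zeros were also more frequent among the members than among all genes of like level. At a mean of 2 to 10 CPM in the other libraries, 69 of 93 member values (74.194%) were 0, against 54.451% over all genes. At 10 to 50 CPM, 10 of 30 member values (33.333%) and 22.389% over all genes were 0. These shares are descriptions with no test, since values of 1 gene or of 1 library are not independent.

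The libraries differed widely in breadth. Reads summed to 10841689, 13781283, 10595181 and 11811382 in Gli1+ MuSCs replicates 1 to 4, and to 19662721, 12808512 and 14724614 in Gli1- MuSCs replicates 1 to 3. Genes of the table with reads ranged from 64.6% to 75.4% in Gli1+ MuSCs and were 81.5%, 41.2% and 51.5% in Gli1- replicates 1, 2 and 3. Members with reads numbered 10, 14, 16 and 14 of 33 in Gli1+ MuSCs, and 20, 5 and 10 of 33 in Gli1- MuSCs. Gli1- replicates 2 and 3, despite more reads than 3 of the Gli1+ libraries in the case of replicate 2 and than all 4 in the case of replicate 3, held the fewest genes.

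**Figure D1:**
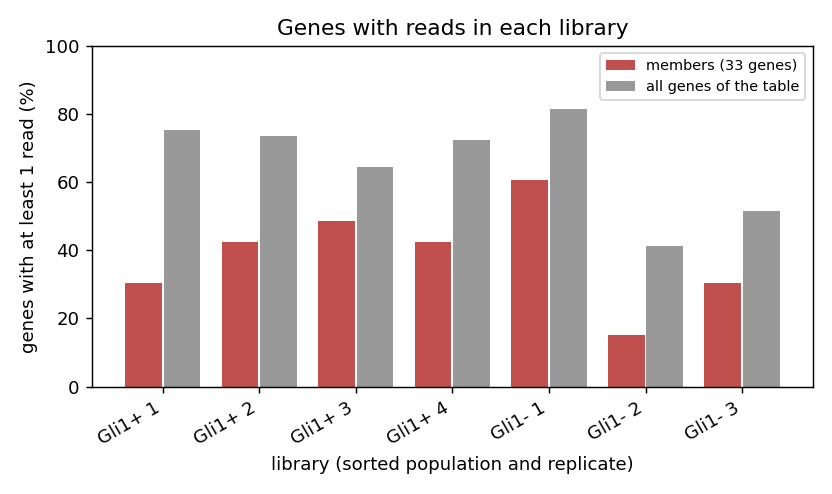
Percentage of genes with at least 1 read in each library (y axis), for the 33 members with a row (red) and all genes of the table (grey), Gli1+ MuSCs replicates 1 to 4 and then Gli1- MuSCs replicates 1 to 3 along the x axis. The members are below all genes in every library, and Gli1- replicate 2 is lowest for both, with 5 members.

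The sort was checked on Pax7, which marks MuSCs, and on Gli1 itself. Pax7 had 555, 409, 261 and 403 CPM in Gli1+ MuSCs and 545, 222 and 276 CPM in Gli1- MuSCs. Gli1 had 50.3, 30.7, 7.28 and 18.3 CPM in Gli1+ MuSCs, against 11.6, 0 and 0 CPM in Gli1- MuSCs (log2 fold change 2.78 ± 2.696 SE, edgeR adjusted p = 1.00), so that Gli1- replicate 1 lay above Gli1+ replicate 3. All 10 MuSC markers were read in every library, and their CPM summed to between 4460 and 6583 in Gli1+ MuSCs and between 4972 and 7063 in Gli1- MuSCs.

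Genes of both stages held most of the signal of the set. Desmin (Des), the intermediate filament protein that ties neighbouring Z-discs together, was the most abundant member in every library. It had 965, 577, 722 and 931 CPM in Gli1+ MuSCs, and 997, 500.3 and 817 CPM in Gli1- MuSCs. The groups overlapped fully, with means of 799 ± 182 CPM in Gli1+ MuSCs and 771 ± 251 CPM in Gli1- MuSCs (SD, n = 4 and 3), a log2 fold change of 0.05 ± 0.34 (SE) and an edgeR quasi-likelihood adjusted p of 1.00. That SE was the smallest among the members tested, and the largest was 4.49. Scaled per kb of exon, the mean level of Des was 213 CPM per kb in Gli1+ MuSCs and 205 CPM per kb in Gli1- MuSCs, above every other member in both groups.

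Chrna1, the alpha subunit of the acetylcholine receptor of muscle, was the only other member read in all 7 libraries. It had 66.9, 51.6, 69.4 and 91.0 CPM in Gli1+ MuSCs, against 28.0, 39.2 and 47.1 CPM in Gli1- MuSCs. Every Gli1+ library was above every Gli1- library, and the lowest Gli1+ library was 1.09 times the highest Gli1- library. The means were 69.7 ± 16.2 CPM in Gli1+ MuSCs and 38.1 ± 9.59 CPM in Gli1- MuSCs (SD, n = 4 and 3), yet the log2 fold change of 0.87 ± 0.65 (SE) did not pass the edgeR test (adjusted p = 1.00).

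Csrp2, a LIM-domain protein known from smooth muscle and from differentiating cells, was read in 6 libraries. It had 85.2, 124, 54.4 and 97.7 CPM in Gli1+ MuSCs, against 35.6, 0 and 46.4 CPM in Gli1- MuSCs. The groups did not overlap here either, the lowest Gli1+ library being 1.17 times the highest Gli1- library, and the log2 fold change was 1.73 ± 1.49 (SE; edgeR adjusted p = 1.00). The 0 of Gli1- replicate 2 allows 0.206 CPM at most by counting error alone, in the library with the fewest genes.

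Ryr1 encodes the calcium release channel of the sarcoplasmic reticulum and Stac3 a partner protein of excitation-contraction coupling. Ryr1 had 23.5, 4.81, 20.7 and 14.4 CPM in Gli1+ MuSCs, against 10.6, 0 and 0 CPM in Gli1- MuSCs, and the groups overlapped (log2 fold change 2.16 ± 2.89 SE, edgeR adjusted p = 1.00). Stac3 had 12.4 and 10.7 CPM in Gli1+ replicates 1 and 2 and no read in the other 5 libraries. The mean of Stac3 in Gli1+ MuSCs was 31.01 times a floor of 3 reads per Gli1- library (edgeR adjusted p = 1.00). That value rests on 2 libraries (19.1 times without Gli1+ replicate 1). The floor covers counting error only, so it is no lower bound of a fold.

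The remaining genes of both stages were read in at most 1 library each. Klhl41, a sarcomere-associated kelch protein, had 168 reads in Gli1+ replicate 3, and Tmod4, which caps actin filaments in muscle, had 355 reads in Gli1+ replicate 2. Actn2, the main alpha-actinin of the Z-disc, had 125 reads in Gli1- replicate 3, and caveolin 3 (Cav3) had 33 reads in Gli1- replicate 1. The giant sarcomere proteins were nearly without reads. Titin (Ttn), with 116825 exonic bases, gave 2 reads over all libraries and nebulin (Neb), with 26582 exonic bases, gave none.

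The 250 bases before the RefSeq start sites (GRCm38.p6) of Des and Chrna1 are shown because these were the members read in every library. Capitals mark forms of the E-box, which the MyoD family of factors is known to bind, namely CAGCTG and also CACCTG with its reverse complement CAGGTG. The Des sequence is chr1:75360042-75360291, plus strand, and the Chrna1 sequence is chr2:73580339-73580588, minus strand.
Des: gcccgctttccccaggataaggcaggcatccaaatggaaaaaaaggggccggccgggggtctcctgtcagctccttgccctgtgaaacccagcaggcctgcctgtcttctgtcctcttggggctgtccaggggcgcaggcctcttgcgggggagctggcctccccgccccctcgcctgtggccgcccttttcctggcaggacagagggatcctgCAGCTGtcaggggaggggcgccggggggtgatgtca
Chrna1: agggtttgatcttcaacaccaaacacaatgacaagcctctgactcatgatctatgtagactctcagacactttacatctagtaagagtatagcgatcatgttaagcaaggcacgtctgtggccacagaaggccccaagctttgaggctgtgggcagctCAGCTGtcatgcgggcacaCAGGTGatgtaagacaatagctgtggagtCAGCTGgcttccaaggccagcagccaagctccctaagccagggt

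A single such hexamer stood in the Des window and 3 in the Chrna1 window. Windows of 250 bases before to 50 bases after the start were at hand for 30 of the 40 members and for 26742 genes in all, and were searched on both strands. CAGCTG, which reads the same on both strands, was in 13 of the 30 member promoters (43.3%) and in 16.2% of all promoters. CACCTG or its reverse complement CAGGTG was in 10 (33.3%) and in 20.1% of all. A CArG box, the site of serum response factor, was in 3 member promoters (10%; Acta1, Actc1 and Myh4) and in 1.59% of all, and a MEF2 site in 2 (6.67%; Klhl41 and Ttn) and in 0.568% of all. The TATA-box letters TATAAA were in 9 (30%) and in 14.1% of all. These matches are letters in a window, given as descriptions, and were not tied to the level of the genes.

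Adult fibre genes were read in scattered libraries of both groups. Of the 18 adult fibre genes with a row, 4, 6, 10 and 9 had reads in Gli1+ replicates 1 to 4, and 15, 2 and 6 had reads in Gli1- replicates 1 to 3. Their CPM summed to 174, 193, 405 and 214 in Gli1+ MuSCs, against 236, 77.4 and 171 in Gli1- MuSCs. The groups overlapped, with means of 247 ± 107 CPM in Gli1+ MuSCs and 162 ± 79.8 CPM in Gli1- MuSCs (SD, n = 4 and 3). Without Actn3 and Atp2a1 the means of the sum were 110 ± 116 CPM in Gli1+ MuSCs and 106 ± 28.2 CPM in Gli1- MuSCs, a pair left out after the values were seen. In bulk samples, fewer cells of a type and less RNA per cell cannot be told apart.

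**Figure D2:**
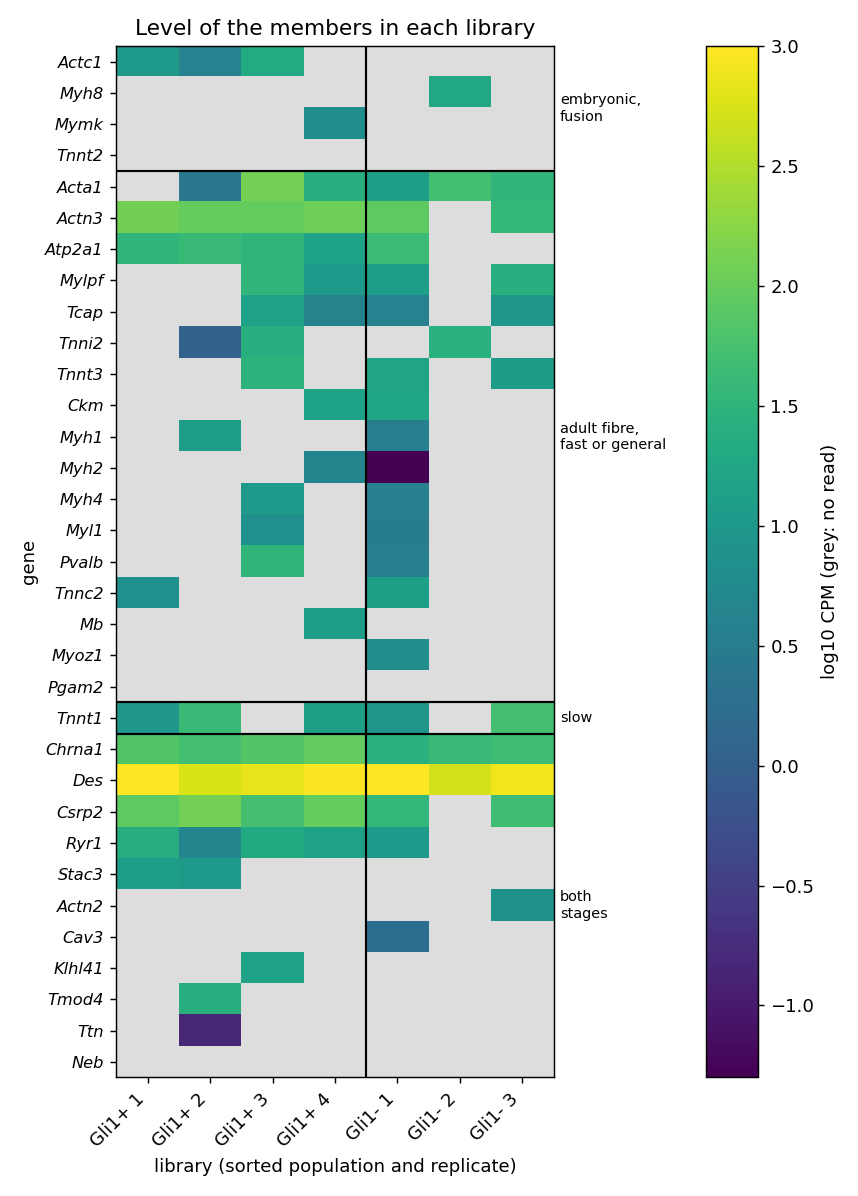
Level of the 33 members with a row (y axis, grouped by stage) in each library (x axis, Gli1+ MuSCs left of the line and Gli1- MuSCs right of it) as log10 CPM, with grey for no read. Des and Chrna1 are coloured in all 7 libraries, most adult fibre genes in 3 or fewer, and the reads of fibre genes gather in Gli1+ replicate 3 and Gli1- replicate 1.

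Actn3, the alpha-actinin of fast fibres, was the most evenly read adult fibre gene. It had 124, 96.3, 94.8 and 112 CPM in Gli1+ MuSCs, against 86.7, 0 and 37.3 CPM in Gli1- MuSCs. Every Gli1+ library was above every Gli1- library, the lowest Gli1+ library being 1.09 times the highest Gli1- library. The means were 107 ± 13.8 CPM in Gli1+ MuSCs and 41.3 ± 43.5 CPM in Gli1- MuSCs (SD, n = 4 and 3), and the log2 fold change of 1.37 ± 1.58 (SE) did not pass the edgeR test (adjusted p = 1.00).

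Atp2a1, which encodes SERCA1, the calcium pump of fast fibres, had 33.1, 39.8, 32.6 and 15.7 CPM in Gli1+ MuSCs, against 43.0, 0 and 0 CPM in Gli1- MuSCs. The highest value was in Gli1- replicate 1 and both zeros were in Gli1- replicates 2 and 3 (log2 fold change 1.08 ± 2.39 SE, edgeR adjusted p = 1.00). Ryr1 was read in the same 5 libraries, and so was Pygm, the glycogen phosphorylase of muscle, which is no member (65.6, 39.0, 48.7 and 40.2 CPM in Gli1+ MuSCs, against 41.8, 0 and 0 CPM in Gli1- MuSCs).

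Skeletal actin (Acta1), the actin of the adult thin filament, had 0, 2.62, 124 and 25.1 CPM in Gli1+ MuSCs, against 13.1, 50.7 and 34.1 CPM in Gli1- MuSCs. The highest and the lowest libraries were both Gli1+ (log2 fold change 0.22 ± 1.84 SE, edgeR adjusted p = 1.00). Gli1+ replicate 3 alone held 1362 of its reads. Without that library the log2 fold change was -1.82, and again not called.

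**Figure D3:**
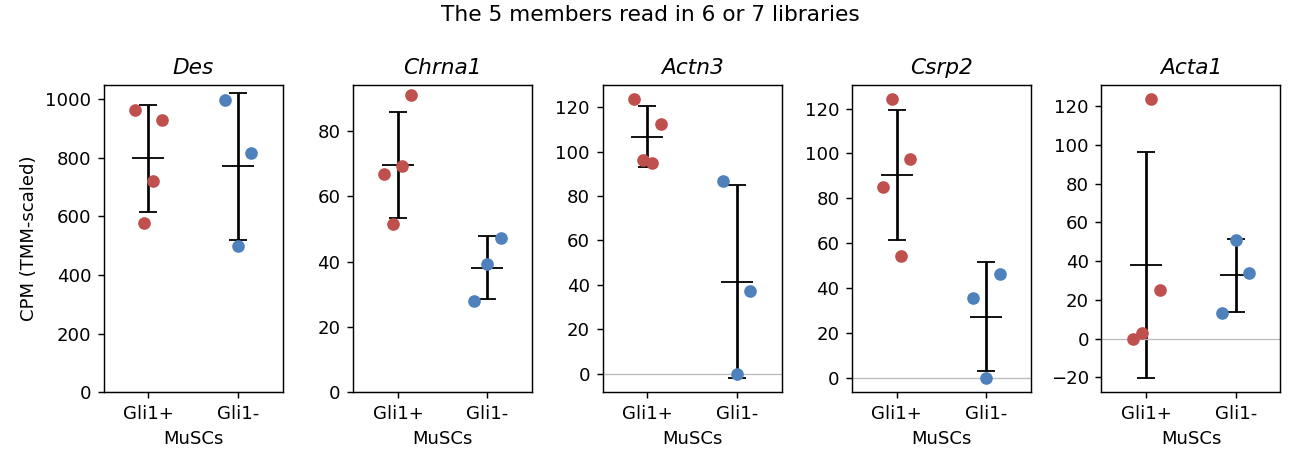
CPM (y axis, scaled by TMM) of the 5 members read in 6 or 7 libraries, a panel per gene with its own axis, Gli1+ MuSCs (red, n = 4) left of Gli1- MuSCs (blue, n = 3), each point a library and the bars the mean ± SD. The groups do not overlap for Chrna1, Actn3 and Csrp2, and they overlap for Des and Acta1.

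The fast myosin heavy chains were each read in 1 library of each group. Myh1 had 169 reads in Gli1+ replicate 2 and 64 in Gli1- replicate 1, Myh4 had 111 reads in Gli1+ replicate 3 and 70 in Gli1- replicate 1, and Myh2 had 43 reads in Gli1+ replicate 4 and 1 in Gli1- replicate 1. A different Gli1+ library thus held each of the 3 genes, and Gli1- replicate 1 held all 3. Reads within stretches such as the 140 bases shown above could belong to any of them.

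The light chains and the calcium buffer of fast fibres followed single libraries as well. Myl1, an alkali light chain, and Pvalb, the calcium-binding parvalbumin, were read in exactly the libraries that held Myh4. Pvalb had 33.2 CPM in Gli1+ replicate 3 and 3.41 CPM in Gli1- replicate 1, and Myl1 had 7.28 CPM in Gli1+ replicate 3 and 3.25 CPM in Gli1- replicate 1. Mylpf, the regulatory light chain of fast fibres, had 0, 0, 33.3 and 10.5 CPM in Gli1+ MuSCs, against 12.2, 0 and 25.2 CPM in Gli1- MuSCs. The groups overlapped for all 3 (edgeR adjusted p = 1.00 each).

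The fast troponins regulate the thin filament through calcium. Troponin T3 (Tnnt3) had 0, 0, 30.6 and 0 CPM in Gli1+ MuSCs, against 16.0, 0 and 11.6 CPM in Gli1- MuSCs, and troponin I2 (Tnni2) had 0, 1.09, 25.0 and 0 CPM in Gli1+ MuSCs, against 0, 26.7 and 0 CPM in Gli1- MuSCs. Troponin C2 (Tnnc2) was read in Gli1+ replicate 1 (7.59 CPM) and Gli1- replicate 1 (13.6 CPM). No library held reads of all 3 subunits of this complex. The log2 fold changes were -0.27 ± 3.28 for Tnnt3, -0.45 ± 3.38 for Tnni2 and -1.26 ± 3.62 for Tnnc2 (SE), none of them called.

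Tcap, which anchors titin at the Z-disc, had 0, 0, 14.6 and 4.23 CPM in Gli1+ MuSCs, against 4.00, 0 and 9.53 CPM in Gli1- MuSCs, in the same 4 libraries as Mylpf. Muscle creatine kinase (Ckm) had 15.4 CPM in Gli1+ replicate 4 and 17.3 CPM in Gli1- replicate 1. Myoglobin (Mb) was read only in Gli1+ replicate 4 (129 reads), and Myoz1, a Z-disc partner of calcineurin, only in Gli1- replicate 1 (125 reads). No read came from Pgam2, the muscle phosphoglycerate mutase.

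Slow fibre genes were represented by Tnnt1, slow troponin T, since the other 3 (Myh7, Tnni1 and Tnnc1) had no row. It had 9.63, 40.9, 0 and 13.7 CPM in Gli1+ MuSCs, against 9.63, 0 and 53.4 CPM in Gli1- MuSCs. The highest library was Gli1- and a 0 stood in each group (log2 fold change -0.39 ± 2.48 SE, edgeR adjusted p = 1.00). Per kb of exon its mean was 7.29 CPM per kb in Gli1+ MuSCs and 9.53 CPM per kb in Gli1- MuSCs, above the fast troponins Tnnt3 (4.83 in Gli1+ and 5.81 in Gli1- MuSCs) and Tnni2 (4.36 in Gli1+ and 5.95 in Gli1- MuSCs).

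Of the embryonic and fusion genes, 3 had reads, and each library held at most 1 of them. Actc1, the actin of embryonic muscle and of heart, had 10.2, 4.08, 21.01 and 0 CPM in Gli1+ MuSCs and no read in any Gli1- library. It was read in 3 of 4 Gli1+ libraries (110, 56 and 231 reads), and the groups met only at the 0 of Gli1+ replicate 4. The mean of Actc1 in Gli1+ MuSCs was 47.3 times the same floor, or 25.5 times without Gli1+ replicate 3. Zeros were common at such levels, so these values are no lower bounds of a fold. At a mean of 2 to 10 CPM elsewhere, 28.228%, 84.681% and 78.612% of all genes were at 0 in Gli1- replicates 1 to 3. Actc1 was the only member with an unadjusted p under 0.05 in the edgeR test, and at an adjusted p of 1.00 it was not called. Because it met the filter only through Gli1+ libraries, it could only come out higher there. Only 0.756% of its stretches of 31 bases occur in another gene.

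The neonatal myosin Myh8 and the fusion protein Mymk were read in 1 library each. Myh8 had 279 reads (19.2 CPM) in Gli1- replicate 2, a library with no read of any adult myosin of the set, and none elsewhere. Mymk, needed for myoblast fusion, had 61 reads (6.14 CPM) in Gli1+ replicate 4 and none elsewhere. Tnnt2 had no read. Myh8 and Mymk did not meet the filter, which asked for 5 or more reads in 2 or more libraries.

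Set beside each other, the embryonic and fusion genes summed to 10.2, 4.08, 21.01 and 6.14 CPM in Gli1+ MuSCs, against 0, 19.2 and 0 CPM in Gli1- MuSCs. Adult fibre genes summed to between 77.4 and 405 CPM in every library. Without Actn3 and Atp2a1, left out after the values were seen, the adult sums were 17.2, 56.9, 278 and 86.2 CPM in Gli1+ MuSCs. In Gli1- MuSCs they were 107, 77.4 and 134 CPM. The embryonic sum averaged 10.4 ± 7.54 CPM in Gli1+ MuSCs and 6.39 ± 11.1 CPM in Gli1- MuSCs (SD, n = 4 and 3), and the groups overlapped. Per kb of exon the order of the lists was the same in every library, with 2.52 to 13.0 CPM per kb for embryonic genes and 66.0 to 242 for adult fibre genes in Gli1+ MuSCs, and with 0 to 1.63 for embryonic genes and 50.9 to 113.5 for adult fibre genes in Gli1- MuSCs. Because only 4 embryonic genes had a row, against 18 adult fibre genes, these sums cover unequal parts of their lists. The median log2 fold change was 0.14 over the 14 adult fibre genes tested (8 above 0 and 6 below), against 0.30 over all genes tested. It was 1.73 over the 5 tested genes of both stages (1.30 without Stac3, which met the filter only through Gli1+ libraries). Actc1, which also met the filter only through Gli1+ libraries, alone stood for the embryonic list (log2 of 5.56 against the floor). Without Gli1+ replicate 3 the median of adult fibre genes was -0.84, and without Gli1- replicate 2 that of genes of both stages was 1.14.

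No member was called. Of the 20 members that met the filter, 0 passed an adjusted p under 0.05 in the edgeR quasi-likelihood test, and the background was 0% of the 11134 genes tested. At an unadjusted p under 0.05, 1 member was higher in Gli1+ MuSCs and 0 were lower, against 1.53% of all genes tested that were higher and 0.611% that were lower. That member was Actc1, which met the filter only through Gli1+ libraries and so could only come out higher. DESeq2 called 0.593% of all genes tested and 0 members (12 had an adjusted p, the lowest 0.428 for Actc1). Actc1 and Stac3 were higher at an unadjusted p under 0.05 in DESeq2, which gave a p-value to 12 of the 20 members. Over all genes 434 of 11134 were higher, with genes without a p-value included in the total. Both met the filter only through Gli1+ libraries. limma-voom called 0% of all genes and 0 members (lowest adjusted p = 0.662). Atp2a1 and Ryr1 were higher at an unadjusted p under 0.05 in limma-voom, against 723 of 11134 genes. The log2 fold change was above 0 in 14 of the 20 members and below 0 in 6. The 14 include Actc1 and Stac3, which could only come out above 0. The share of all genes above 0 was not counted. The median of the members was 0.81, against 0.30 over all genes tested. Without Gli1+ replicate 3 it was 0.10, against 0.32 over all genes.

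Groups without overlap were higher in Gli1+ MuSCs for 3 of the 20 members (Actn3, Chrna1 and Csrp2) and lower for 0, against 2.87% and 0.934% of all genes tested. Of these 3, Actn3 and Csrp2 had their 0 in Gli1- replicate 2, where 17.427% of all genes with a mean of 50 to 200 CPM elsewhere were also at 0. The same 3 members remained with that library left out. That is no check, since leaving out a library can only keep or widen such a gap, rescaling aside. Without Gli1- replicate 1, the only Gli1- library with reads of Atp2a1 and Ryr1, those 2 genes joined them (5 of the 14 members then tested). The share of all genes without overlap was not counted under that setting. No read in any Gli1- library was found for 2 of the 20 members (Actc1 and Stac3) and for 3.83% of all genes tested. Such genes met the filter only through Gli1+ libraries. Among the 20 members, 13 had a 0 in both groups. The part of library breadth in these differences was not tested.

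**Figure D4:**
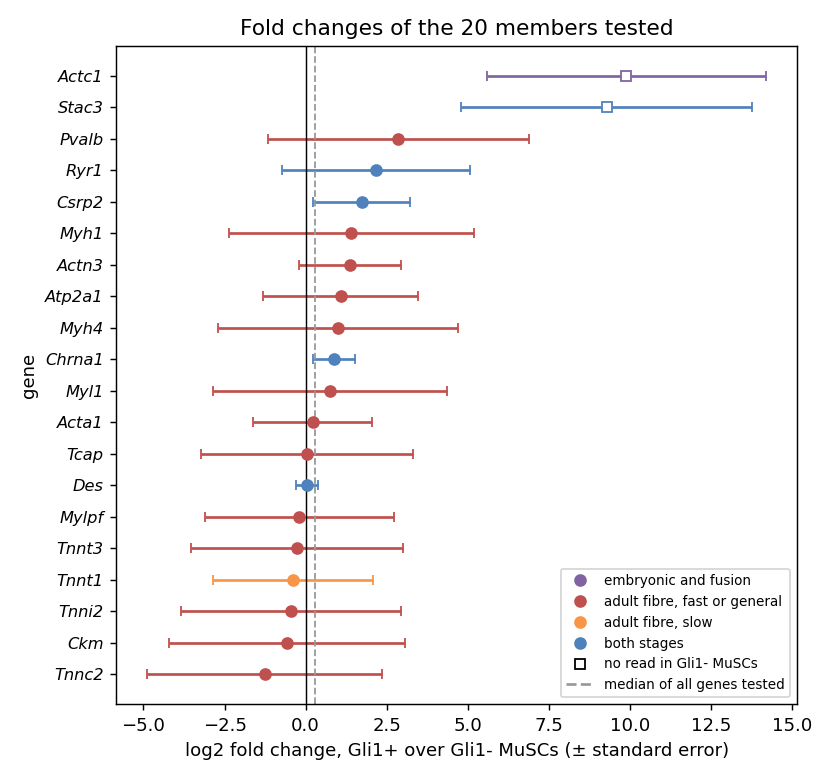
Log2 fold change, Gli1+ over Gli1- MuSCs (x axis, points with ± SE), of the 20 members tested (y axis), coloured by stage, with open squares for Actc1 and Stac3, whose fitted values depend on the prior count because no Gli1- library had a read. The dashed line is the median of all genes tested, 0.30. Of the members 14 lie above 0, with Actc1 and Stac3 among them, and Des has the narrowest bar.

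Each member's highest level fell in some libraries more often than in others, although the summed level of all members, with Des as its largest part, was more even. Among the 30 members with reads, the highest library was Gli1+ replicate 1, 2, 3 and 4 for 3, 4, 9 and 4 members, and Gli1- replicate 1, 2 and 3 for 6, 2 and 2. For the 17 adult fibre genes with reads, Gli1+ replicate 3 was highest for 7 and Gli1- replicate 1 for 4. In all, 19 members were read in both groups, 7 in Gli1+ MuSCs only (Actc1, Stac3, Mb, Klhl41, Tmod4, Ttn and Mymk) and 4 in Gli1- MuSCs only (Myh8, Myoz1, Actn2 and Cav3). Apart from Actc1 and Stac3 each of these 11 was read in a single library.

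Markers of other cell types also differed between libraries. The 6 tenocyte markers summed to between 26.0 and 1174 CPM in Gli1+ MuSCs and between 20.02 and 719 CPM in Gli1- MuSCs, the 8 endothelial markers to between 121 and 1151 CPM in Gli1+ MuSCs and between 133 and 1005 CPM in Gli1- MuSCs, and the 10 immune markers to between 0.185 and 363 CPM in Gli1+ MuSCs and between 20.02 and 284 CPM in Gli1- MuSCs. Gli1+ replicate 3, which had the largest adult fibre sum, was also the highest library for the tenocyte, endothelial, immune, pericyte and smooth muscle, and Schwann and glial sums. Of the genes of the 3 proteins that the gate excluded, Ptprc (CD45) was at 0 in all libraries but Gli1+ replicate 3 (8.9 CPM), Ly6a (Sca1) was read in all 7 libraries at between 13.3 and 165 CPM in Gli1+ MuSCs and between 14.6 and 299.5 CPM in Gli1- MuSCs, and Pecam1 (CD31) was read in all 7 libraries at between 4.5 and 334 CPM in Gli1+ MuSCs and between 18.6 and 434 CPM in Gli1- MuSCs. The 10 markers of fibro/adipogenic progenitors and fibroblasts summed to between 2913 and 10262 CPM in Gli1+ MuSCs, highest in replicate 4, and between 3102 and 5163 CPM in Gli1- MuSCs. Among them Pdgfra was at 0 in 4 libraries, while Dcn, Col1a1, Col3a1, Dpt, Gsn and Ly6a were read in all 7. Smoc2 was read in 6, Lum in 5 and Pi16 in 4. Gli1- replicate 1, which held the most adult fibre genes (15), was among the 3 lowest libraries for each of these sums, and Gli1- replicate 2, which held 2, was among the 3 highest. The part of other cell types in the members' values was not tested.

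Other genes of the same pathways were read from lists outside the 40. Of 48 other contractile and triad genes, 27 had a row and 17 were tested, none called, with 12 log2 fold changes above 0 and 5 below and a median of 0.24. Their smallest p belonged to tropomyosins, the rods that lie along the thin filament and are used in many cell types. Tpm2 had 5.37, 11.3, 172 and 61.8 CPM in Gli1+ MuSCs, against 13.4, 18.001 and 0 CPM in Gli1- MuSCs (log2 fold change 2.58 ± 1.82 SE). The other two were Tpm1 (0.67 ± 0.52) and Tpm3 (-0.50 ± 0.39), both read in all 7 libraries.

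Of 15 myofibre energy genes, 11 had a row and 7 were tested, none called (3 above 0, 4 below, median -0.05). Cox8b, a muscle subunit of cytochrome c oxidase, had reads in Gli1+ replicates 3 and 4 only (13.2 and 10.98 CPM), Pygm followed Atp2a1 as given above (log2 fold change 1.79 ± 2.16 SE), and Slc25a4, the ADP/ATP carrier of muscle and heart mitochondria, was read in all 7 libraries (0.19 ± 0.38 SE). Of 22 genes of myoblast adhesion and fusion, 21 had a row and 18 were tested, none called (15 above 0, 3 below, median 0.30). Dysf, the membrane repair protein dysferlin, had 108 and 618 reads in Gli1+ replicates 1 and 3 and none in the other 5 libraries. It was the only gene of that list with an unadjusted p under 0.05 (edgeR adjusted p = 1.00). Over all genes tested, 1.53% were higher at that level. Dysf and, in the energy list, Cox8b met the filter only through Gli1+ libraries, so both could only come out above 0. Jam3 (-0.43 ± 0.41 SE) and Kirrel (0.44 ± 0.46 SE), both cell adhesion molecules, were read in every library. The adhesion genes as a list summed to 2555, 2531, 3326 and 3038 CPM in Gli1+ MuSCs, against 2252, 2127 and 2921 CPM in Gli1- MuSCs, and between 12 and 18 of the 21 were read in each library.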

How the data were processed

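The values used are raw read counts per gene, 1 column a library, as deposited by the authors. According to the methods, STAR aligned reads to GRCm38 transcripts, tximport loaded them, genes with 5 reads or more in 2 or more samples were kept, and DESeq2 tested them. CASAVA and HISAT2 2.0.5 appear in the submitters' processing notes. Of the 13280 deposited rows, 11134 meet that filter. Another 14 per-sample columns of normalized values were not used, nor were the authors' fold changes and p-values.

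Rows were matched to symbols, and 13240 rows carry one. Counts were tested in R 4.3.3 with edgeR 4.0.16 (quasi-likelihood, robust, TMM, the filter above, two-sided, Benjamini-Hochberg over 11134 genes, called under 0.05), after a test on simulated data. CPM use TMM-scaled library sizes. The edgeR test returns no SE, so each SE given with its log2 fold changes was derived. It is the size of the fold change divided by the square root of the quasi-likelihood F statistic. A gene without reads in a group was set against 3 reads in each of its libraries. DESeq2 1.42.0 and limma 3.58.1 (voom with quality weights), other scalings and filters, a replicate block and leaving out each library were alternatives. Exon lengths and overlapping genes, and the shares of sequence found in other genes (31 bases at a time), were computed from the GENCODE annotation of GRCm38. The common dispersion was 3.11. Named genes are the 40 members, Pax7, Gli1 and the 3 tested genes of smallest p in each wider list. Ptprc, Pecam1 and the markers of fibro/adipogenic progenitors and fibroblasts, Ly6a and Pdgfra among them, were named after their values were seen. The members and lists were chosen with earlier results of these data known.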

Additional observations from a re-analysis of the deposited data

Results flagged for a closer look

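In 13 of the 25 members read in Gli1+ MuSCs and examined, 1 of the 4 Gli1+ libraries stood far from the other 3 by Dixon's criterion. In 12 of the 13 the other 3 libraries were at 0, a pattern that meets the criterion whatever the level, so the usual chance of about 1 in 20 groups does not apply. Over all 12006 genes with 5 or more Gli1+ reads, 19% met the criterion, and 1679 genes were read in 1 Gli1+ library of 4, so for the members too it describes how many were read in a single library. In Gli1+ replicate 3 these were Tnnt3 at 30.6 CPM, Pvalb at 33.2 CPM, Tnni2 at 25.0 CPM (1.09 CPM in replicate 2), Klhl41 at 15.3 CPM, Myh4 at 10.1 CPM and Myl1 at 7.28 CPM. In Gli1+ replicate 4 they were Ckm at 15.4 CPM, Mb at 13.0 CPM, Mymk at 6.14 CPM and Myh2 at 4.33 CPM. Tmod4 stood at 25.8 CPM and Myh1 at 12.3 CPM in Gli1+ replicate 2, and Tnnc2 at 7.59 CPM in Gli1+ replicate 1. The 3 Gli1- libraries are too few for this criterion.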

How the results depend on the processing

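Members called at an adjusted p under 0.05 were 0 under all 15 alternatives. Over all genes DESeq2 called 66, and leaving out each library gave 0 to 2 (2 without Gli1- replicate 1 and 1 without Gli1- replicate 2). Members higher at an unadjusted p under 0.05 numbered 2 under DESeq2, of the 12 to which it gave a p-value. They numbered 2 of 20 under limma-voom, 0 without robust estimation and 0 with the replicate block. With a library left out they numbered 0 to 2. The 0 were without Gli1+ replicates 1, 2 or 3 or Gli1- replicate 3. A count of 1 was Actc1 without Gli1+ replicate 4, and Csrp2 in place of Actc1 without Gli1- replicate 2. The 2, Atp2a1 and Ryr1, were without Gli1- replicate 1 (14 members tested). No Gli1- read of either gene was then left, so both met the filter only through Gli1+ libraries and could only come out higher. Over all genes, 434 of 11134 were higher under DESeq2 (genes without a p-value included in the total) and 723 of 11134 under limma-voom. With a library left out, 1207 of 10556 were higher without Gli1- replicate 1. The counts were 84 of 10803 without Gli1+ replicate 4 and 80 of 11050 without Gli1- replicate 2. Members without overlap numbered 3 to 5 with a library left out, where a fall below 3 was not possible, rescaling aside. The 5 were without Gli1- replicate 1, which added Atp2a1 and Ryr1. The median log2 fold change of the tested members was 0.22 with at least 10 reads in 3 libraries (13 members tested), against 0.30 over all genes. It was 0.05 with the replicate block, against 0.50, and 0.34 under limma-voom, against 0.93. With a library left out it ran over 0.10 (without Gli1+ replicate 3) to 1.15 (without Gli1+ replicate 4), against 0.32 and 0.29 over all genes. Without Gli1- replicate 1 it was 0.53, against 0.63. Under the other alternatives the median of the members was above that of all genes. The median of adult fibre genes ran over -0.84 (without Gli1+ replicate 3) to 0.63, and that of genes of both stages was 1.14 without Gli1- replicate 2, 2.36 with the replicate block and 3.36 under limma-voom, alternatives for that list chosen after seeing the data. For embryonic and fusion genes the value is the fitted fold of Actc1 alone except without a filter, set by the prior count and no measure of stability. It was 7.38 without a filter, 6.53 under limma-voom and 9.05 to 10.36 with a library left out.

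Of 278 values of single members under the alternatives, 247 kept their direction and 31, in 10 members, reversed. Under limma-voom these were Acta1 -3.65, Tcap -2.81, Tnni2 1.18, Tnnc2 0.51, Myl1 -0.16, Myh4 -0.14 and Tnnt1 0.08, and with library totals Des -0.05. With the replicate block they were Acta1 -4.08, Tcap -1.73, Tnni2 0.37, Des -0.02 and Tnnt1 0.00. With a library left out, Acta1 ran over -1.82 to 0.68, Des -0.18 to 0.27, Mylpf -1.83 to 0.84, Tcap -1.67 to 1.23, Tnni2 -4.57 to 9.44, Tnnt1 -1.43 to 1.74 and Tnnt3 -10.00 to 0.38. The 9.44 of Tnni2 (without Gli1- replicate 2) and the -10.00 of Tnnt3 (without Gli1+ replicate 3) arise because no read is left in a group, so they depend on the prior count and are not folds. The cause of the other reversals was not tested. The median of all genes was 0.30, and 0.27 with DESeq2's size factors, 0.23 with library totals and 0.93 under limma-voom.

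Replicate numbers are shared by 3 pairs, whose deviations correlated at 0.217, -0.0987 and 0.0679, so the numbers were not taken as pairs. The block called 0 genes and left 19 members tested. Zeros limit the rest. A gene read in 1 or 2 libraries gives no usable error, and the fold changes of members other than Des and Chrna1 have an SE of 1.49 or more.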
